A study of Rattus norvegicus with 2 samples.

Results

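The 10 mineralisation and hypertrophy genes described here are Bglap, Ibsp, Runx2, Sp7, Pth1r, Alpl, Phospho1, Enpp1, Ankh and Col10a1, taken by symbol from the gene lists of 2 rat single-cell libraries. In the CIA library 9 of them were among 19250 listed genes, and in the control library all 10 were among 19726. Col10a1 was not listed for the CIA library. The study profiled cartilage of Lewis rats with droplet 3' single-cell RNA-seq. The CIA rats (collagen-induced arthritis) had received Complete Freund's Adjuvant with type II collagen and were sampled at day 14. The control rats had no treatment by their label, and the design text calls them sham. There was 1 library per group, and the number and age of the animals behind each are not stated in the labels. No difference below has a replicate check, so no p-value is given, and every interval covers counting error only.

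Mineral forms in cartilage and bone where phosphate is released faster than pyrophosphate, the inhibitor of crystal growth, is supplied. Articular chondrocytes normally stay unmineralised, whereas hypertrophic chondrocytes of the growth plate and osteoblasts switch on matrix proteins and phosphatases that let mineral form. Parathyroid hormone-related protein signals through its receptor to hold chondrocytes short of hypertrophy, and Runx2 and Sp7 drive the program forward.

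Promoter sequences were matched in RefSeq (build GRCr8, 250 bases before to 50 after the annotated start) for 8 of the 10 genes. Those of Bglap, Ibsp and Alpl and the first of 2 of Runx2 are shown. The motifs searched on both strands were a RUNX motif (TGTGGT or ACCACA), held by 17.3% of 33469 rat promoters of 300 bases, and a GC box (GGGCGG or CCGCCC), held by 33.1%. Of the 9 promoters matched for the members, 2 held a RUNX match, both of them shown, and 5 held a GC box. The second Runx2 promoter, not shown, held no RUNX match. Capitals mark every match to either motif. The Bglap promoter (chr2:176137269-176137568, minus strand) held 1 RUNX match, which begins 118 bases before the start. The Ibsp promoter (chr14:5757193-5757492, minus strand) held neither motif. The Alpl promoter (chr5:155289736-155290035, minus strand) held 4 GC boxes, of which 1 pair overlaps, and the first Runx2 promoter (chr9:23664808-23665107, plus strand) held 3 RUNX matches. A match describes these letters only and is no evidence of binding.
Bglap promoter: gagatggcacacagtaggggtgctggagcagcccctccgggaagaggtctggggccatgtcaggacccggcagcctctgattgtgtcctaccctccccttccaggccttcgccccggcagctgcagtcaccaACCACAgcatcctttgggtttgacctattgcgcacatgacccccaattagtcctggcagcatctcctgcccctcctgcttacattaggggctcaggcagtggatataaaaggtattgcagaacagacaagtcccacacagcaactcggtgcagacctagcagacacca
Ibsp promoter: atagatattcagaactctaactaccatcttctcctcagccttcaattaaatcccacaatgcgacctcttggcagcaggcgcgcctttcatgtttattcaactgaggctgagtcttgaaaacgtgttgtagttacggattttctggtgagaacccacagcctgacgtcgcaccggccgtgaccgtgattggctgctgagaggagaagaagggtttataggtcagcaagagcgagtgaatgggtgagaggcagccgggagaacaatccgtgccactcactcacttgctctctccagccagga
Alpl promoter: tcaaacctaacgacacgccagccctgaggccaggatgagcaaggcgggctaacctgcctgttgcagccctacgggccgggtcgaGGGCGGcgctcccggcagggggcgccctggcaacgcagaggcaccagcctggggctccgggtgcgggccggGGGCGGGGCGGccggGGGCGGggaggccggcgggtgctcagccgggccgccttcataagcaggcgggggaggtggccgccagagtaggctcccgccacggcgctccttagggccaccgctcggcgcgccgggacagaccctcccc
Runx2 promoter 1: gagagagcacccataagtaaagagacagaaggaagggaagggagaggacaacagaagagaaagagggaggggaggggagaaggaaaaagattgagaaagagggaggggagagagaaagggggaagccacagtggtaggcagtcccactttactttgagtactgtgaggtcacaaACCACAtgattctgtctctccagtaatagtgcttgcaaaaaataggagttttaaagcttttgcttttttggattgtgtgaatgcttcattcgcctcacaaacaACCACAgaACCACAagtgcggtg

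After filtering, 8409 of 8622 CIA barcodes and 5349 of 5456 control barcodes were kept, with a median of 10473 UMIs per cell (unique molecular identifiers, each a counted transcript) in the CIA library and 11872 in the control library. The libraries share 52 barcodes, 49 of them kept. The cells fell into 14 clusters, built without the member genes, of which cluster 12 was chondrocyte-like by 10 of 14 chondrocyte markers and led by Chad, Snorc and Col2a1. It held 34 CIA cells (0.404%, exact 95% interval 0.280 to 0.565%) and 404 control cells (7.55%, 6.86 to 8.29%). Its markers were scored over both libraries together, so the name rests mostly on control cells. Leaving aside its cells with at least 10 Bglap UMIs, Chad was found in 14 of 32 CIA and 354 of 396 control cells. Col2a1 was found in 22 and 381 of the same cells. Although the tissue label is cartilage, fibroblast-like, macrophage/monocyte-like, synovial lining-like and endothelial-like clusters held most cells of both libraries. Whether the CIA tissue held fewer chondrocytes or gave up fewer in dissociation cannot be told apart.

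Over all kept cells, 5 members were lower in the CIA library, and none was higher. Bglap, Ibsp, Alpl, Phospho1 and Pth1r met the size rule, which asks for at least a 2-fold difference in CPM (the UMIs of a gene scaled to the library total) with an interval wholly beyond 1.5-fold and at least 100 UMIs in the 2 libraries together. Of 12822 genes measured, 4.27% were lower by that rule and 0.811% were higher. Ankh, Enpp1 and Runx2 met it in neither direction, and Sp7 had too few UMIs to be measured. The CIA over control ratio was 0.0192 for Bglap (0.0163 to 0.0225), 0.0602 for Ibsp (0.0570 to 0.0634), 0.161 for Alpl (0.150 to 0.173), 0.266 for Phospho1 (0.233 to 0.303) and 0.475 for Pth1r (0.446 to 0.505). It was 0.796 for Runx2 (0.700 to 0.905), 1.04 for Ankh (0.951 to 1.14) and 1.14 for Enpp1 (1.11 to 1.17), against a median log2 ratio of -0.02 over all measured genes. These sums mix the number of cells of a type with the RNA in each, and the share of cells in cluster 12 moves with them. Its part in the ratios is given below by comparing cells inside and outside that cluster.

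**Figure D1:**
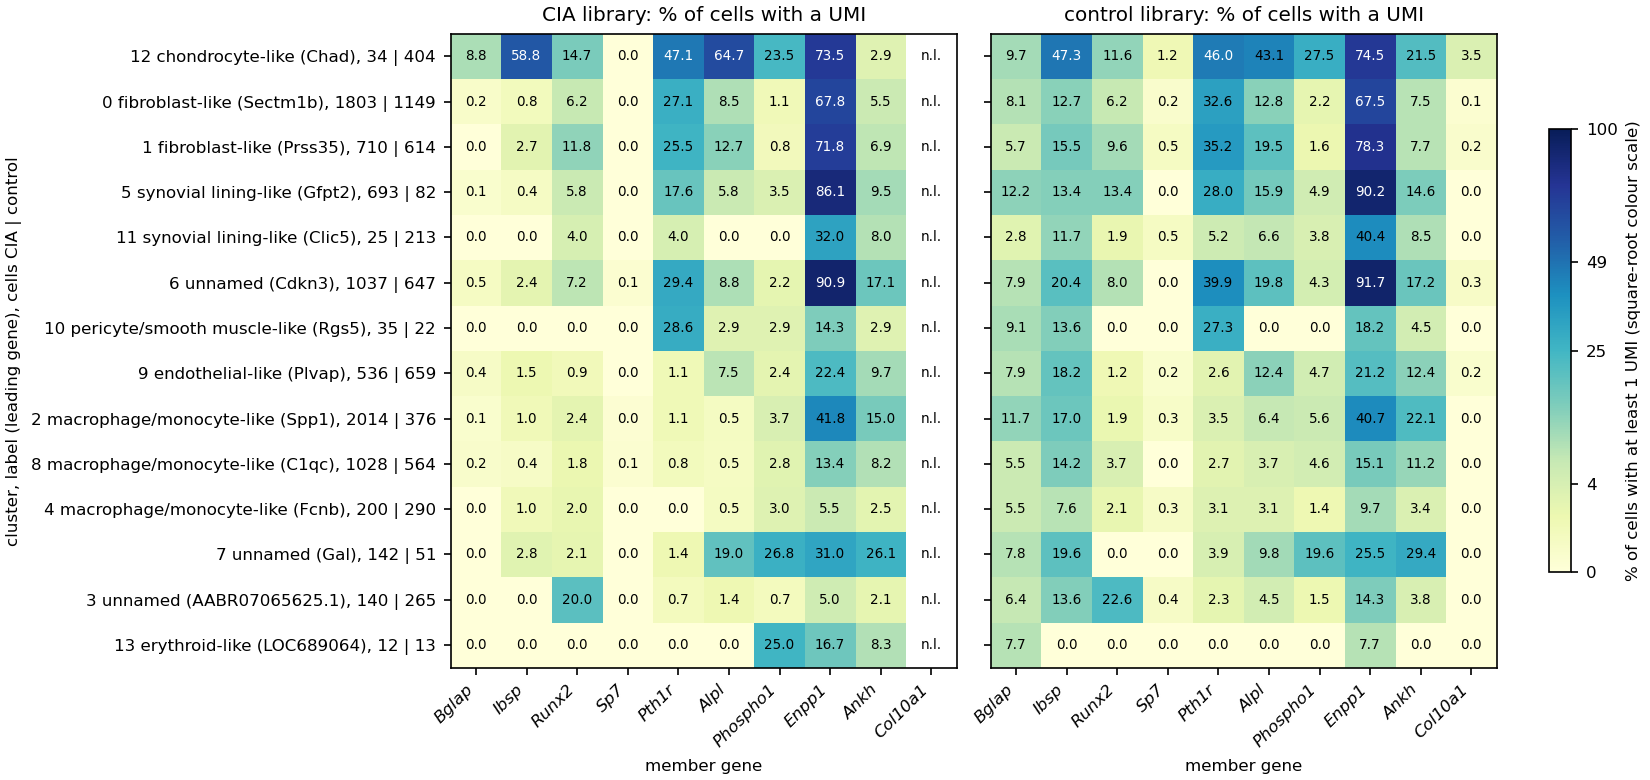
Share of cells (%) with at least 1 UMI of each member in each cluster, CIA library on the left and control library on the right; n.l. marks Col10a1, which is not listed for the CIA library, and the row names give the cells of each library. Cluster 12 has the highest shares of Ibsp, Alpl and Pth1r in both libraries (Ibsp 58.8% of CIA and 47.3% of control cells), Enpp1 is found in most fibroblast-like and lining-like cells, and the control library has Bglap and Ibsp UMIs in nearly every row.

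The bone matrix genes were concentrated in few cells. Bglap encodes osteocalcin, a small vitamin K-dependent protein secreted by osteoblasts, and its UMIs numbered 157 in 20 CIA cells and 6040 in 401 control cells. Cells with at least 10 Bglap UMIs numbered 2 in the CIA library and 9 in the control library, and held 85.4% of the CIA and 92.0% of the control Bglap UMIs. The 2 CIA cells had 71 and 63 Bglap UMIs, and the 9 control cells had 2253, 1389, 611, 552, 409, 176, 101, 36 and 27. In the highest control cell Bglap alone made up 24.0% of all UMIs, against 1.28% in the highest CIA cell. The Bglap total of each library therefore rests on a handful of cells. Without these 11 cells the ratio over all kept cells was 0.0349, lower by the size rule. Most Bglap UMIs then left, 21 in CIA and 437 in control, lay outside the chondrocyte-like cluster. Bglap shares there are largely read as background (below), so this ratio cannot show whether expression differed.

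All 11 Bglap-rich cells also held UMIs of Ibsp, Alpl and Pth1r. Chad, a leucine-rich protein of cartilage that leads cluster 12, was found in 2 of the 11. Osteoblast markers were uneven among them. Tnn was found in 9 of the 11 cells and in 62.9% of the other cells of cluster 12, so it did not mark them out. Dmp1, an acidic protein of osteocytes and osteoblasts, was found in 4, against 1.40% of the other cells of cluster 12. Ifitm5, a membrane protein of bone-forming osteoblasts, was found in 2. Runx2 was found in 7, against 9.38% of the other CIA cells and 10.9% of the other control cells of cluster 12, and Sp7 in 0. One of the 11, a control cell with 51458 UMIs, lay in cluster 6, which was led by the cell cycle genes Cdkn3, Cdk1 and Prc1, and the other 10 lay in cluster 12.

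Ibsp encodes bone sialoprotein, an acidic phosphoprotein that binds hydroxyapatite and cell-surface integrins. It had 1477 UMIs in 120 CIA cells and 18127 UMIs in 935 control cells. Cells with at least 10 Ibsp UMIs made up 0.214% of the CIA library (18 cells) and 2.19% of the control library (117 cells), and 14 of the 18 and 108 of the 117 lay in cluster 12. That cluster held 80.7% of CIA and 91.7% of control Ibsp UMIs. Ibsp was thus spread over many more cells than Bglap, and the 10 highest cells held 82.4% of the CIA and 48.4% of the control UMIs.

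Most UMIs of the transcription factor gene Runx2 lay outside cluster 12. Runx2, the runt-domain factor needed for osteoblast formation and chondrocyte hypertrophy, had 498 UMIs in the CIA library and 462 in the control library, of which 1.61% and 13.6% lay in cluster 12. Its highest cluster in both libraries was cluster 3 (48.1 CPM and 28 of 140 cells in CIA, 40.8 CPM and 60 of 265 cells in control), which stays unnamed and was led by genes such as Cd7, Ptprcap and Irf8. When cluster 3 was clustered again, Runx2 was found in 57.1% of the 28 cells of a sub-cluster led by Siglech, Irf8 and Cyb561a3, which also stays unnamed. Of these, 1 of 5 CIA cells and 15 of 23 control cells held it. Cluster 12 itself had 8 Runx2 UMIs in 34 CIA cells and 63 in 404 control cells. Sp7, the zinc-finger factor osterix, was near the limit of detection, with 3 UMIs in the CIA library and 16 in the control library, at no more than 2 in any cell. Of its 15 positive control cells 4 also held Runx2, against 0 of the 5 that lay in cluster 12.

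Pth1r, the receptor of parathyroid hormone and of parathyroid hormone-related protein, was found in 13.8% of CIA cells (1164) and 21.3% of control cells (1137). It was highest in cluster 12 (215 CPM in CIA, 273 CPM in control) but was not confined to it. Cluster 12 held 4.29% of the CIA and 45.2% of the control Pth1r UMIs. Most of the rest came from the fibroblast-like clusters 0 and 1, the lining-like cluster 5 and the unnamed cluster 6, led by cell cycle genes. In these clusters 17.6 to 29.4% of CIA cells and 28.0 to 39.9% of control cells held a UMI. The pericyte/smooth muscle-like cluster 10 had the gene in 28.6% of its 35 CIA cells and 27.3% of its 22 control cells. In the endothelial-like cluster 9 it was found in 1.1% of CIA cells and 2.6% of control cells. Outside cluster 12 the ratio was 0.784 (0.730 to 0.843), which did not meet the size rule.

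The phosphatases and the pyrophosphate genes had different distributions. Alpl, the tissue-nonspecific alkaline phosphatase that hydrolyses pyrophosphate, had 910 UMIs in the CIA library and 4164 in the control library, of which 28.5% and 78.2% lay in cluster 12. Cells with at least 10 Alpl UMIs numbered 8 in CIA, all in cluster 12, and 73 in control, 70 of them in cluster 12. Outside cluster 12, the fibroblast-like cluster 0 had 190 Alpl UMIs in CIA and 234 in control, and cluster 1 had 112 and 176. Cluster 6 had 132 and 190, and the endothelial-like cluster 9 had 71 and 198. Fewer UMIs, 34 and 35 over both libraries, lay in the 2 neutrophil-lineage-like sub-clusters of cluster 7. There Alpl was found in 15 of 22 and 11 of 15 CIA cells, and in 1 of 12 and 0 of 2 control cells. These 2 sub-clusters were led by S100a9, Ngp and Camp in one and by Defa5, RatNP-3b and Np4 in the other. Outside cluster 12 the Alpl ratio was 0.501 (0.452 to 0.555), just short of the 2-fold limit.

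Phospho1, a phosphatase that frees phosphate from phosphocholine inside matrix vesicles, had 317 UMIs in the CIA library and 880 in the control library, with 10.7% and 77.4% of them in cluster 12. Outside cluster 12 its ratio was 0.993 (0.825 to 1.196). There it was highest in cluster 7 (26.8% of CIA and 19.6% of control cells). Within cluster 7 an osteoclast-like sub-cluster led by Gal, Mmp9 and Ctsk held it in 26 of 59 CIA cells and 6 of 12 control cells, and another led by Atp6v0d2, Ccl9 and Slc9b2 held it in 10 of 34 CIA cells and 3 of 18 control cells. The erythroid-like cluster 13 had it in 3 of 12 CIA cells and 0 of 13 control cells, numbers too small to set apart.

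Enpp1, the enzyme that makes pyrophosphate from extracellular nucleotides, was the most widely found member, in 53.2% of CIA cells and 51.8% of control cells. It had 17128 UMIs in the CIA library and 11081 in the control library, and cluster 12 held 0.508% of the CIA and 8.89% of the control UMIs. Its levels were 420 CPM in CIA and 366 CPM in control in cluster 6, 309 and 458 CPM in the lining-like cluster 5, and 202 and 215 CPM in the fibroblast-like cluster 1. Cluster 12 lay between clusters 5 and 1 in CIA, and between clusters 6 and 1 in control, with 260 CPM in CIA and 228 CPM in control. The lowest levels among clusters of at least 50 cells were 7.79 CPM in CIA and 11.3 CPM in control, both in the Fcnb-led monocyte-like cluster 4.

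Ankh, a membrane protein that supplies pyrophosphate outside the cell, had 1151 UMIs in the CIA library and 816 in the control library. Its highest shares outside cluster 12 were in cluster 7 (26.1% of CIA and 29.4% of control cells), where it was found in both osteoclast-like sub-clusters. It was held by 14 of 34 CIA and 7 of 18 control cells of the Atp6v0d2-led one, and by 19 of 59 CIA and 6 of 12 control cells of the Gal-led one. With cells of both libraries thinned to 4000 UMIs the shares were 19.2% in the Atp6v0d2-led and 5.63% in the Gal-led sub-cluster. The Spp1-led macrophage-like cluster 2 had it in 15.0% of CIA and 22.1% of control cells. In cluster 12 it was found in 1 of 34 CIA cells and 87 of 404 control cells.

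Col10a1, the collagen of hypertrophic cartilage, can be described for the control library alone. It had 53 UMIs in 19 cells, of which 46 UMIs and 14 cells were in cluster 12. The highest cell held 14 UMIs, and only 6 cells held 3 or more. At this depth 0.355% of control cells (0.214 to 0.554%) had a UMI, so few hypertrophic cells can be counted by this gene. No other cluster held it in more than 0.309% of its cells.

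**Figure D2:**
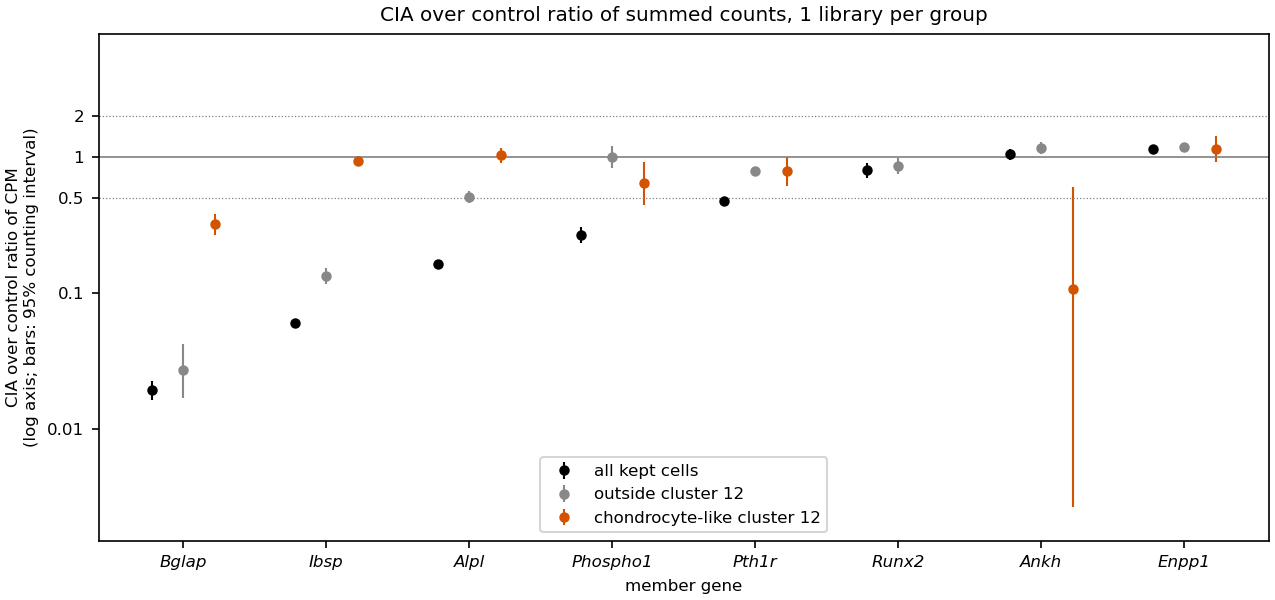
CIA over control ratio of CPM (log axis) for each member measured, over all kept cells, outside cluster 12 and inside cluster 12; bars are 95% counting intervals, the solid line is a ratio of 1 and dotted lines mark 2-fold. Bglap and Ibsp are below 0.2 outside cluster 12, Phospho1 is at 0.993 and Pth1r at 0.784 there, and inside cluster 12 Ibsp, Alpl, Pth1r and Enpp1 lie between 0.5 and 2.

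Inside cluster 12 the members separated by sub-cluster. It was clustered again without the member genes, a step added after the clusters had been seen, and gave 7 sub-clusters. A Panx3-led sub-cluster (6 CIA and 32 control cells), which also held Col2a1 in every cell, had Ibsp and Alpl in 100% of cells, Pth1r in 97.4% and Phospho1 in 92.1%. With each cell thinned to 4000 UMIs the shares were 97.4% for Ibsp, 100% for Alpl, 92.1% for Pth1r and 76.3% for Phospho1, since these cells were deep (median 19212 UMIs). Panx3 is a channel protein of hypertrophic chondrocytes and osteoblasts. The same sub-cluster had the highest levels of Alpl (2812 CPM), Phospho1 (439 CPM) and Pth1r (896 CPM) of the 7, and the lowest of Enpp1 (74.3 CPM). Its Ankh level was 5.40 CPM, from 4 UMIs in all.

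An Lgals1-led sub-cluster (10 CIA and 49 control cells) held most of the Bglap. Its level was 8816 CPM, against 1.82 to 289 CPM in the other 6. A Bglap UMI was found in 13 of its 59 cells, so most of its cells held none. The Lgals1-led sub-cluster also had Alpl in 89.8% of cells, Pth1r in 69.5% and Ibsp in 67.8%, with Ankh in 5.08%. Chad, which leads cluster 12, was found in 30.5% of its cells, and 1 control cell gave 41.8% of its Bglap UMIs. The Serpina1-led sub-cluster (8 CIA and 44 control cells) ran the other way, with Enpp1 in 100% of cells at 583 CPM, Alpl in 15.4% and Ibsp in 21.2%. A Prg4-led sub-cluster (2 CIA and 75 control cells) had the highest Ankh, in 32.5% of cells at 59.9 CPM, and low Alpl (59.9 CPM) and Phospho1 (11.97 CPM). The Tnni2-led sub-cluster, with 1 CIA and 94 control cells, combined Chad in 98.9% of cells with Ibsp in 70.5%, Alpl in 67.4% and Phospho1 in 51.6%. The Orm1-led sub-cluster (7 CIA and 34 control cells) had Ibsp at 6182 CPM, of which 1 cell gave 68.5%. These orders are descriptions over both libraries summed, and most cells come from the control library.

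**Figure D3:**
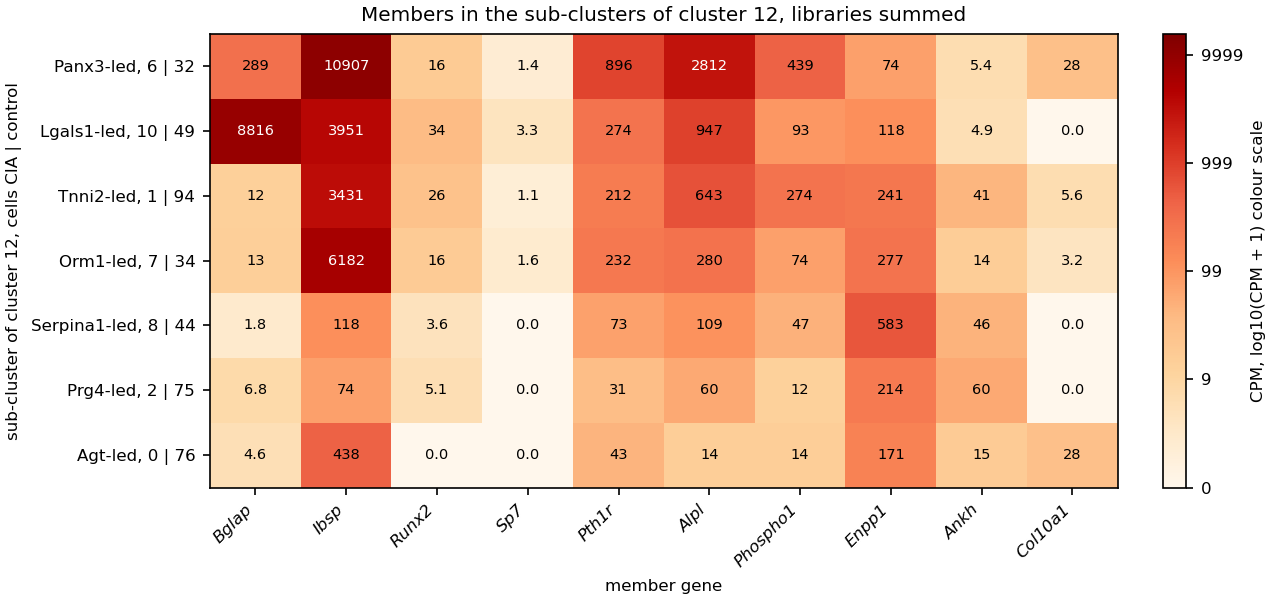
CPM of each member (colour on a log10(CPM + 1) scale, values printed) in the 7 sub-clusters of cluster 12, both libraries summed; row names give the leading gene and the cells of each library, and Col10a1 comes from the control library alone, though its CPM is set over the cells of both. The Panx3-led row is highest for Alpl, Phospho1 and Pth1r, the Lgals1-led row holds Bglap at 8816 CPM, and the Serpina1-led row has the highest Enpp1 at 583 CPM.

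The 2 libraries filled these sub-clusters unevenly. The Lgals1-led and Panx3-led sub-clusters together made up 16 of 34 CIA cells of cluster 12 (47.1%, 29.8 to 64.9%) and 81 of 404 control cells (20.05%, 16.3 to 24.3%). As a share of all kept cells they were 0.190% of the CIA library and 1.51% of the control library. The Agt-led sub-cluster had 0 CIA cells and 76 control cells. In the Panx3-led sub-cluster Alpl stood at 2274 CPM in CIA (1934 to 2656) and 2868 CPM in control (2742 to 3000), and Ibsp at 11297 CPM in CIA (10522 to 12113) and 10867 CPM in control (10619 to 11119). Pth1r there was 515 CPM in CIA (361 to 713) and 935 CPM in control (863 to 1011), and 1 CIA cell gave 36.1% of the CIA UMIs. For Ibsp and Alpl 1 CIA cell gave 44.2% and 31.4% of them. With 6 CIA cells, counting error understates the spread between cells.

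Summed over cluster 12, Bglap and Ankh met the size rule in the lower direction, which 4.49% of 4253 genes measured there met in that direction and 2.00% in the other. Bglap had 136 UMIs (407 CPM) in CIA and 5502 (1273 CPM) in control, a ratio of 0.319 (0.267 to 0.379). Of these UMIs 2 CIA cells held 134, and without the cells of at least 10 Bglap UMIs 2 UMIs were left in CIA and 49 in control, under the minimum of 100, so the Bglap call ended. Ankh had 1 UMI in CIA and 122 in control, a ratio of 0.106 (0.00266 to 0.601). The Ankh call was lost with a mitochondrial limit of 10% (0.184) and under the clusterings listed next. Ibsp (0.926, 0.873 to 0.982), Alpl (1.03, 0.902 to 1.17), Enpp1 (1.14, 0.906 to 1.42), Pth1r (0.789, 0.613 to 1.00) and Phospho1 (0.645, 0.443 to 0.911) met it in neither direction. Alpl and Enpp1 fell below 1 with edgeR's TMM scaling (0.861 and 0.956), which shifts every log2 ratio in this cluster by -0.26.

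**Figure D4:**
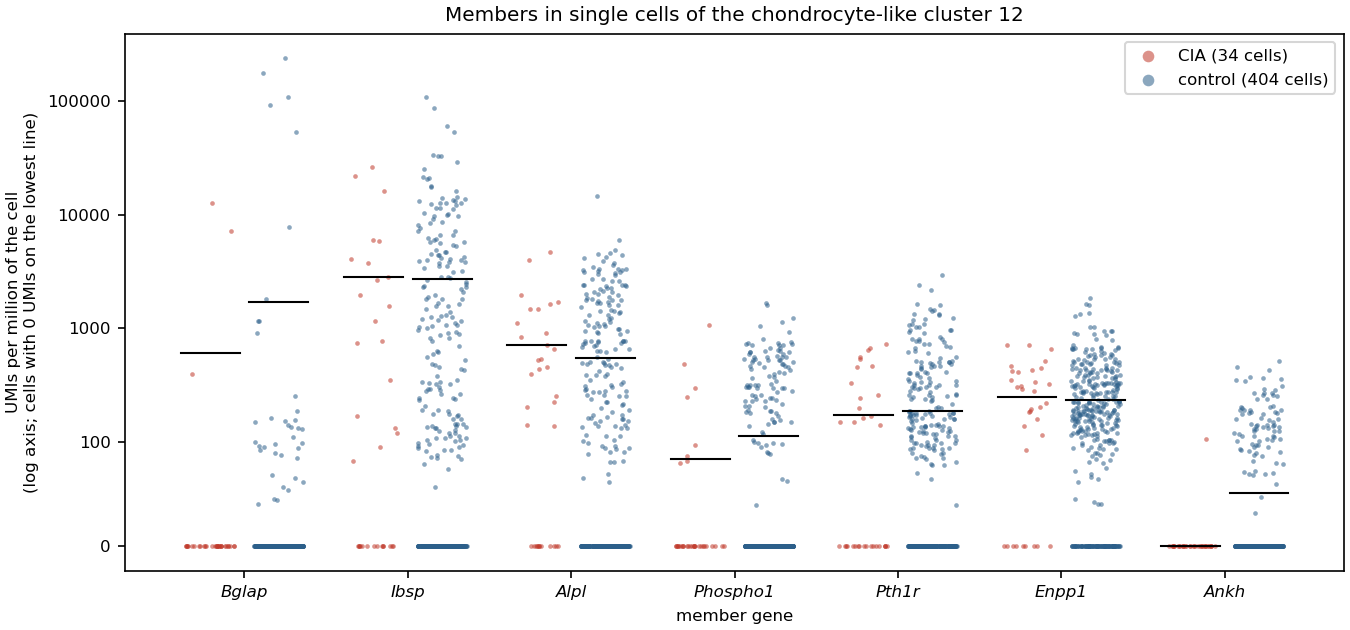
CPM within each cell (log axis, cells with 0 UMIs on the lowest line) for 7 members in the 34 CIA cells (red, left of each pair) and 404 control cells (blue, right) of cluster 12; black bars are means over cells, and the CIA bar of Ankh lies on the lowest line because its mean is below the axis. The CIA cells fall inside the range of the control cells for each member, and the highest control cell reaches 240346 for Bglap, against 12846 in the highest CIA cell.

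These near-equal ratios depend on which cells are counted as cluster 12. At a Leiden resolution of 1, with at least 500 genes per cell or with doublet calls kept, all 97 cells of the Lgals1-led and Panx3-led sub-clusters left the cluster, and at least 93 of them joined a large cluster made up mostly of cells of the fibroblast-like cluster 1. Inside the remaining cluster Ibsp had a ratio of 0.181, 0.188 and 0.196 under these 3 settings and Phospho1 of 0.0681, 0.0711 and 0.0737, all lower by the size rule. Pth1r had ratios of 0.454, 0.459 and 0.480 and Alpl of 0.665, 0.625 and 0.650 under the same settings and met the rule in neither direction. Bglap was then under 100 UMIs, and Ankh (0.187 to 0.195) no longer met the rule. Leaving out the cell with most UMIs of the gene in each library gave 0.354 for Phospho1, which then met the rule, and 0.814 for Ibsp. Leaving out the sub-clusters with under 5 CIA cells gave 0.175 for Bglap, 0.610 for Ibsp, 0.677 for Alpl and 0.521 for Pth1r. With genes centred per library the matching cluster had 0 Bglap UMIs in CIA, and its ratios were 0.576 for Ibsp and 1.54 for Enpp1. The ratios over all kept cells do not use the clusters.

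Outside cluster 12, Bglap and Ibsp again met the size rule as lower in CIA, with 3.48% of 12738 genes lower and 0.714% higher. Bglap had 21 UMIs in CIA and 538 in control (ratio 0.0272, 0.0167 to 0.0421), and Ibsp had 285 in CIA and 1496 in control (0.133, 0.117 to 0.151). These UMIs were thinly spread: 88.2% of the positive CIA cells and 89.2% of the positive control cells had exactly 1 Bglap UMI. In the endothelial-like cluster 9, which should lack both genes, a Bglap UMI was found in 0.4% of CIA and 7.9% of control cells and an Ibsp UMI in 1.5% of CIA and 18.2% of control cells, at median depths of 8759 and 11329 UMIs. Over all clusters of at least 50 cells other than cluster 12 the Bglap shares were 0 to 0.482% in CIA and 2.82 to 12.2% in control, and the Ibsp shares 0 to 2.82% in CIA and 7.59 to 20.4% in control. Shares at or below those of cluster 9 are read as background, not as expression. Shares above them are not read as expression on that ground alone. The highest control shares were in deeper cells, with medians of 18214.5 UMIs in cluster 5 for Bglap and 16927 in cluster 6 for Ibsp. Free RNA was not measured here, and its part in the differences outside cluster 12 was not tested. Outside cluster 12 at least 10 Ibsp UMIs were held by 4 CIA and 9 control cells, and the 10 highest cells held 63.9% of the CIA and 40.6% of the control Ibsp UMIs.

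**Figure D5:**
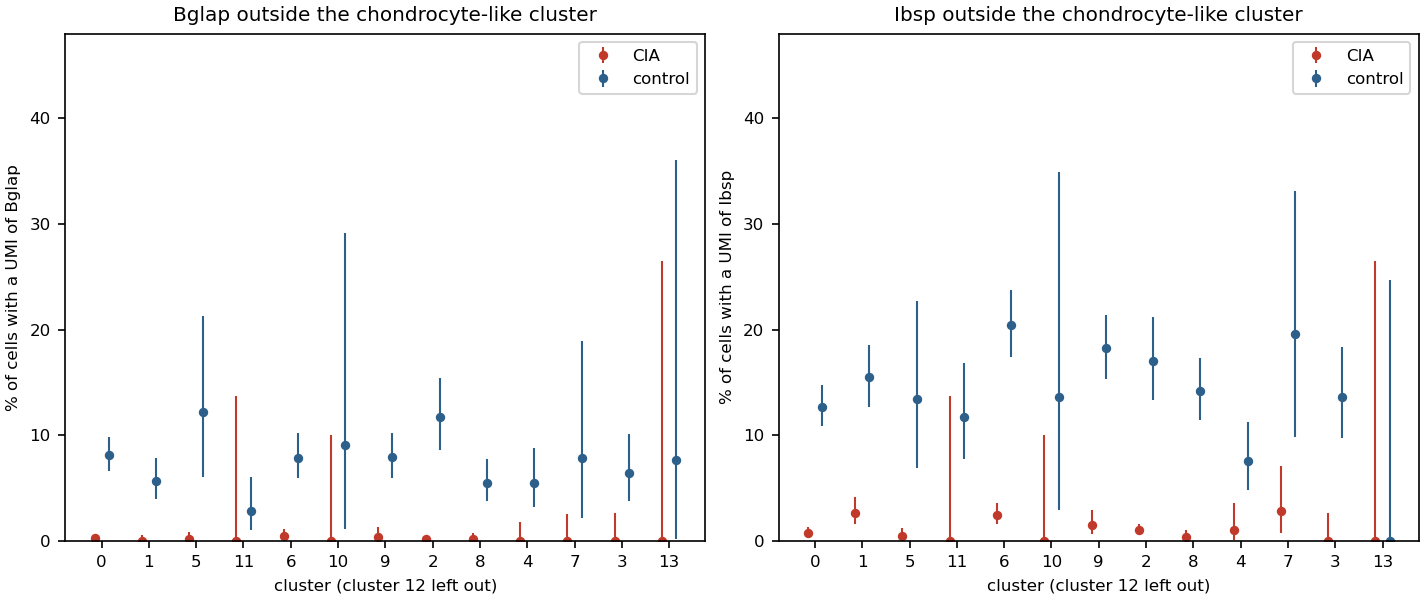
Share of cells (%) with a UMI of Bglap (left) and of Ibsp (right) in each cluster other than cluster 12, CIA in red and control in blue; points are shares and bars are exact 95% binomial intervals. CIA shares lie at or below 2.82% in each cluster and control shares reach 12.2% for Bglap and 20.4% for Ibsp, in endothelial-like cluster 9 and macrophage-like clusters 2 and 8 as in the fibroblast-like ones.

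Among the 8 clusters with at least 100 cells in each library, 6 member calls were lower in CIA and 0 were higher. Of all genes measured, the share lower by the rule was 0.968% in cluster 0, 1.01% in cluster 1, 2.21% in cluster 2, 3.77% in cluster 3, 5.98% in cluster 4, 1.08% in cluster 6, 3.88% in cluster 8 and 1.55% in cluster 9. The share higher was 0.227% in cluster 0, 0.280% in cluster 1, 0.489% in cluster 2, 1.73% in cluster 3, 0.460% in cluster 4, 0.212% in cluster 6, 0.265% in cluster 8 and 0.325% in cluster 9. Ibsp was lower in the fibroblast-like clusters 0 (0.0720) and 1 (0.406), in cluster 6 (0.351) and in the endothelial-like cluster 9 (0.0286). Bglap was lower in clusters 0 (0.0287) and 6 (0.0249). Cluster 9 was taken to lack Ibsp, which was not tested. Its shares are read as background, so its call is not read as a difference in expression. The part of background in the calls of clusters 0, 1 and 6 was not tested. In cluster 9 a single control cell gave 301 of 437 Ibsp UMIs, and without the highest cell of each library the ratio was 0.0804. In cluster 1 a single CIA cell gave 52 of 82 Ibsp UMIs, and without the highest cells the ratio was 0.172. In cluster 6 the 51458-UMI cell gave 101 of the 157 control Bglap UMIs, and without it Bglap could no longer be measured there. No other measured member met the rule in any of these 8 clusters. Members measured numbered 7 in cluster 0, 6 in cluster 1, 3 in cluster 2 and 1 in cluster 3. They numbered 0 in cluster 4, 7 in cluster 6, 2 in cluster 8 and 4 in cluster 9. Under the minimum of 100 UMIs, and so without a call, were Ibsp in clusters 2, 3, 4 and 8 and Bglap in clusters 1, 2, 3, 4, 8 and 9. Each of these had a ratio below 1.

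Members were also read in pairs within the cells of cluster 12. Of the cells with Phospho1, 8 of 8 in CIA and 98 of 111 in control (88.3%) also held Alpl, against 36.4% of CIA and 56.3% of control Alpl cells that held Phospho1. Pth1r was found in 16 of 22 CIA Alpl cells (72.7%) and 130 of 174 control Alpl cells (74.7%), and in 0% of CIA and 24.3% of control cells without Alpl. Since 22 of the 34 CIA cells held Alpl, the 0% rests on too few cells to be set against the control share. In the control library 72 of 87 Ankh cells (82.8%) held Enpp1, against 72.2% of cells without Ankh, and 28 of the 87 (32.2%) held Alpl, while Ankh was found in 16.1% of Alpl cells and 25.7% of cells without Alpl. The 1 CIA cell with Ankh held Enpp1 and no Alpl. These shares rise with the depth of a cell and carry no test.

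Other genes of mineralisation were read from 4 lists. Over all kept cells, 1 of 11 measured bone matrix genes was higher in CIA (Spp1, osteopontin, ratio 3.42) and 2 were lower (Chad 0.0141 and Dmp1 0.364), with a list median log2 ratio of -0.33. Of 13 osteogenic factors 0 were higher and 2 lower, namely the chondrocyte factor Sox9 (0.317) and the homeobox factor Dlx5 (0.421), with a median of -0.46. Of 11 phosphate and mineral genes 0 were higher and 2 lower, the sphingomyelinase gene Smpd3 (0.0574) and the sodium-calcium exchanger gene Slc8a3 (0.201), with a median of -0.23. Of 15 hypertrophy signals 1 was higher, the gelatinase gene Mmp9 (4.30). In the same list 5 were lower, Panx3 (0.123), the cell cycle inhibitor gene Cdkn1c (0.361), Bmp4 (0.399), Bmp2 (0.422) and the hedgehog receptor gene Ptch1 (0.495), with a median of -0.15. The median of all measured genes was -0.02.

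Inside cluster 12 the 4 lists gave 3 higher and 1 lower of 9 bone matrix genes, with a median log2 ratio of 0.35. The higher ones were Spp1 (5.18), Col1a1 (2.41) and the tenascin gene Tnn (2.33), and the lower one was Chad (0.242). A single CIA cell gave 38.5% of the CIA Spp1 UMIs and 42.8% of the CIA Tnn UMIs. Without the highest cell of each library Spp1 was at 3.63 and Col1a1 at 2.28, and Tnn (1.56, 1.28 to 1.88) no longer met the rule. Of 7 osteogenic factors 1 was lower (Sox9, 0.443) and of 6 phosphate genes 1 was lower (the phosphate transporter gene Slc20a1, 0.172), with medians of -0.03 and -0.56. Of 8 hypertrophy signals Mmp13, the collagenase of hypertrophic chondrocytes, was higher (2.65), and Bmp2 (0.124), Cdkn1c (0.169) and Vegfa (0.310) were lower, with a median of -0.39. Without the highest cells Smpd3 (0.226) met the rule in the lower direction too. The median of all genes measured in the cluster was 0.14. Without the sub-clusters of under 5 CIA cells, 1 bone matrix gene was higher and 0 lower, 0 osteogenic factors and 2 phosphate genes were lower, and 0 hypertrophy signals were higher. Summed osteoblast markers made up a median of 1.91% of a cell's UMIs in CIA (0.0764 to 28.0%) and 0.202% in control (0.0493 to 34.5%), and chondrocyte markers 2.61% in CIA (0.109 to 9.34%) and 3.801% in control (0.0534 to 16.6%). The part of these cell mixtures in the list counts was not tested.

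Outside cluster 12, bone matrix genes had 1 higher and 1 lower of 10 (Spp1 3.48 and Chad 0.0168), osteogenic factors 0 higher and 0 lower of 13, phosphate genes 0 higher and 1 lower of 10 (Slc8a3, 0.462), and hypertrophy signals 1 higher and 3 lower of 15. Those 4 were Mmp9 (4.09), Bmp4 (0.385), Panx3 (0.493) and Cdkn1c (0.494).

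The genes whose profiles were most like each member's were found over 22 cluster-by-library sums of at least 50 cells, only 1 of them from cluster 12, by Pearson's r of log2(CPM + 1). They are a description, since all sums of a library share its depth and its background. Outside cluster 12, where Bglap and Ibsp shares are largely read as background, other cartilage genes also differed between the libraries. Leaving the Bglap-rich cells aside, a Col2a1 UMI was found there in 7.52% of CIA and 77.1% of control cells. The r values of Bglap and Ibsp therefore do not show expression in the same cells. Bglap was most like the cartilage genes Col9a3 (0.979), Snorc (0.972) and Cytl1 (0.956), and Ibsp like Snorc (0.948), Col11a2 (0.944) and Col9a1 (0.943). Alpl was most like Cnksr1 (0.886), Fzd9 (0.866) and Col27a1 (0.853), and Pth1r like Col16a1 (0.964), Col11a1 (0.956) and RGD1310110 (0.954). Enpp1 was most like Selenos (0.953), Cgref1 (0.951) and Loxl2 (0.9496), Ankh like Pdcd6 (0.866), Slc35e4 (0.822) and Tchh (0.747), and Runx2 like Tnfaip8l3 (0.920), Chrne (0.882) and Klhdc1 (0.833). Phospho1 was most like Nrtn (0.838), Sfrp5 (0.790) and Gramd2 (0.786), and without the cluster 12 sum these were 0.614, 0.397 and 0.249. For the other 7 members the corresponding values without it were 0.636 to 0.975.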

How the data were processed

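The raw UMI counts per gene and cell were deposited by the authors as 1 matrix per library, made with a Chromium 3' version 2 kit, per the labels' protocols. The submitters' processing notes name the genome build mRatBN7.2. No aligner, counter or setting is given in the sources used here. Strand use is not stated, so reads of overlapping genes cannot be told apart.

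Barcodes under 200 genes or above 20% mitochondrial UMIs were dropped, and 166 CIA (1.94%) and 62 control (1.15%) doublets called by Scrublet were removed. Deposited totals were 105752977 UMIs in CIA and 76927821 in control. After scaling each cell to 10000 and taking logs, the cells of both libraries were clustered together (scanpy 1.11.5, 2000 variable genes, 30 principal components, 15 neighbours, Leiden resolution 0.5) after removing the member genes, 5 of which were among the variable genes. Clusters were named when at least 3 fixed markers were in most of their cells at 2-fold or more over the rest, a scoring rule set after the clusters were seen. Clusters 12, 7 and 3 were clustered again with 20 components.

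For comparisons, counts were summed per library and scaled to CPM of the 18147 genes listed for both, with an exact conditional 95% interval of the ratio. Shares have exact Clopper-Pearson intervals, and cells were also thinned to 4000 UMIs. The ratio step was tested on simulated data. With 1 library per group there is no test. The genes named are the 10 members, the 3 genes most like each, genes leading clusters where a member is highest, and pathway genes past the size rule (up to 3 per direction, or all where 5 or fewer passed). The members and lists were chosen with earlier results of these data known. Alternatives changed the scaling (edgeR 4.0.16 TMM), the minimum of UMIs, the cell filters, the clustering and the cells left out.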

Additional observations from a re-analysis of the deposited data

How the results depend on the processing

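No paired analysis was possible because each group has 1 library. Over all kept cells each of the 8 measured members kept its direction and its side of the size rule under every alternative that was run for it. Without a minimum of UMIs Sp7 also met the rule there. The clusters decided more. The share of cells in cluster 12 was 0.175% in CIA and 5.99% in control with doublet calls kept, 0.191% and 6.03% with at least 500 genes per cell, and 0.202% and 6.02% at resolution 1. With genes centred per library the control share was 6.60%, and without sub-clusters of under 5 CIA cells it was 3.12%. In each of the first 3 settings the Bglap-rich and Panx3-rich cells left the cluster.

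Members lower in cluster 12 numbered 1 with a mitochondrial limit of 10%, without cells of at least 10 Bglap UMIs (Ankh, since Bglap was then under the minimum) and without sub-clusters of under 5 CIA cells. Lower calls over the 8 compared clusters numbered 18 with no minimum of UMIs, and 12 with doublet calls kept and with at least 500 genes per cell. There was 1 higher call, Ankh in cluster 6, when mitochondrial UMIs were limited to 10% (2.26) and when genes were centred within libraries (2.30). In cluster 12 the osteogenic factors lower in CIA numbered 2 with TMM factors. Without the cell of most UMIs of each gene in each library the phosphate genes lower there numbered 2, and bone matrix genes 2 higher, since Tnn no longer met the rule. Without sub-clusters of under 5 CIA cells the bone matrix genes numbered 1 higher and 0 lower, osteogenic factors 0 lower, phosphate genes 2 lower and hypertrophy signals 0 higher. Beyond the smaller number of cells or UMIs that a setting leaves, the cause was not tested. The leaving out of sub-clusters, of Bglap-rich cells and of the highest cell for pathway genes was chosen after seeing the data.

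With 34 CIA cells in cluster 12, a share of 0 there allows up to 10.3% of cells with a UMI (exact upper limit). Sp7 and Runx2 are limited by depth in both libraries and Col10a1 in the control library.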
